A study of Homo sapiens with 6 samples.

Results

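The expression of 10 transcription factor genes that act on the choice between epithelial and mesenchymal state was followed in MDA-MB-231 cells, a human breast cancer line long kept in culture and known for basal and mesenchymal-like traits. The members were set by gene symbol, with earlier results of these data known. They are ZEB1, ZEB2, SNAI1, SNAI2, TWIST1, OVOL1, OVOL2, GRHL1, GRHL2 and GRHL3. All probe sets whose only gene symbol was one of these 10 were taken, which gave 20 of the 54675 probe sets on the array, for 10 of the 19775 genes with such a probe set. One group, the GFP control, carried a lentivirus that encodes enhanced green fluorescent protein (GFP) alone, and the other a lentivirus for GATA3 and GFP. Cells of both groups were sorted for GFP, seeded at the same number per dish and harvested after 2 days in the same serum-containing medium. Each group had 3 arrays. The labels do not say that the 3 arrays of a group came from separate cultures, so the spread behind each p-value is that among these arrays and may be technical. The labels name neither the promoter that drove GATA3 nor whether the sorted cells were a clone or a pool.

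The ZEB factors carry zinc fingers and homeodomain-like sequences, and the SNAI factors are zinc finger proteins of the Snail family. Both families bind E-boxes of the type CAGGTG in front of epithelial genes such as CDH1 (E-cadherin) and repress them, and TWIST1 is a basic helix-loop-helix factor that also binds E-boxes. The OVOL zinc finger factors repress ZEB1 and other mesenchymal genes, and the grainyhead-like factors GRHL1, GRHL2 and GRHL3 activate genes of epithelial junctions. ZEB1 and GRHL2 are known to repress each other, as are ZEB1 and the microRNAs of the miR-200 family. Cells such as MDA-MB-231 are known for ZEB1 expression and a silent E-cadherin gene.

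Sequences of 2 kinds place these factors. The first are the microRNAs known to pair with ZEB1 and ZEB2 transcripts, shown because probe sets for the host transcripts of the miR-200c and miR-205 loci were on the array. They are given 5′ to 3′ from RefSeq (GRCh38.p14), with the seed, bases 2 to 8, in capitals.
hsa-miR-200c-3p: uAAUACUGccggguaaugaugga
hsa-miR-200b-3p: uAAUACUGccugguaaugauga
hsa-miR-429: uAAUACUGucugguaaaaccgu
hsa-miR-141-3p: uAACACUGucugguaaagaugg
hsa-miR-200a-3p: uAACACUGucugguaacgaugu
hsa-miR-205-5p: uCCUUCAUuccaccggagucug
The first 3 share the seed AAUACUG, and miR-141-3p and miR-200a-3p share AACACUG. The probe set of the miR-200c host transcript (MIR200CHG, 240284_x_at) read 4.93 on all 6 arrays. A value repeated on every array can be background in these data. Probe sets of MIR205HG and of MIR205 lay at the array floor of 2.16 on all 6 arrays. These host transcripts were chosen after their values had been seen.

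The second are promoters, shown because ZEB1 fell, ZEB2 did not pass the test, and OCLN and CRB3 rose. They are the 250 bases before a RefSeq transcription start (GRCh38.p14), 5′ to 3′ on the gene's strand, with CAGGTG and its reverse complement CACCTG in capitals. The ZEB1 stretch lies before the most upstream of its 7 listed starts, at chr10:31318167-31318416 on the plus strand. The ZEB2 stretch is at chr2:144520120-144520369 on the minus strand, the OCLN stretch at chr5:69492297-69492546 on the plus strand and the CRB3 stretch at chr19:6464021-6464270 on the plus strand.
ZEB1: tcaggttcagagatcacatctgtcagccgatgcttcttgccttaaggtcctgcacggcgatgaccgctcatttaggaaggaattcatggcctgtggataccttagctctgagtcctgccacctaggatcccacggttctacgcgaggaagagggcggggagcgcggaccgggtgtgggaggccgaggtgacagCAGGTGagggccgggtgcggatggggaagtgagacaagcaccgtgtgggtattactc
ZEB2: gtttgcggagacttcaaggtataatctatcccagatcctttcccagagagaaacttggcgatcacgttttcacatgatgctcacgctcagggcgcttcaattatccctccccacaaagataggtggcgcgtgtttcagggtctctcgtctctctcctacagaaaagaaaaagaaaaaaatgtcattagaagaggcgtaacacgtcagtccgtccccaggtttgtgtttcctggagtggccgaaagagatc
OCLN: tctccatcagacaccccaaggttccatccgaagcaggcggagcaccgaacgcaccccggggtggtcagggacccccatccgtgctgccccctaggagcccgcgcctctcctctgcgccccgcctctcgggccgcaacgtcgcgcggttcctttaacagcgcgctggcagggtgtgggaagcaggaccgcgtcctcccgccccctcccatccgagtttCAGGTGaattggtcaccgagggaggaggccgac
CRB3: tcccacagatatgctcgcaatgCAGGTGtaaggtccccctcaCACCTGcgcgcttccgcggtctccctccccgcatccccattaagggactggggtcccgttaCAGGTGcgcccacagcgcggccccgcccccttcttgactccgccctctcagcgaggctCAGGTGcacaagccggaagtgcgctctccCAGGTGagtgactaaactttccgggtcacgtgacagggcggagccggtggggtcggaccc
The ZEB1 stretch held 1 E-box of this type, 57 bases before the start, and the third of its listed starts had 2, at 242 and 85 bases. The rest of the 7 ZEB1 starts had none. ZEB2 had none, OCLN had 1 and CRB3 had 5. MARVELD2, CLDN3 and CLDN4, which rose too but are not shown, had none in their listed windows. Windows were listed for 4 of the 10 members. The single GRHL1 window had no such E-box, and of the 2 GRHL3 windows 1 had an E-box, 21 bases before the start. Of the 11 windows of members, 3 held at least 1, or 27.3%, against 17.5% of all 35116 windows of this length (both strands searched). A match is a description of the letters and shows no binding.

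The expression values come from GCRMA and were read as log2. The floor was the same on all 6 arrays, and each array had 23603 to 23709 probe sets over 4, taken as the detection level. Only probe sets over 4 on at least 3 of the 6 arrays were tested, with limma across all 23785 of them, and an adjusted p is a Benjamini-Hochberg p over all of these. GATA3 replicate 3 stood apart: it correlated with the other arrays labelled GATA3 at 0.984 to 0.986, against 0.997 between those, and it alone carries another date in its raw file's name. The introduced gene went against the label. The brightest GATA3 probe set (209604_s_at) read 9.37, 9.35 and 9.45 in the GFP control and 7.93, 7.94 and 7.32 in the arrays labelled GATA3 (log2 change -1.66, SE 0.18, adjusted p 0.00238). Probe set 209602_s_at fell too, from 4.73, 4.38 and 5.07 to under the detection level on the arrays labelled GATA3 (adjusted p 0.00444). The remaining GATA3 probe set (209603_at) lay under that level on all 6 arrays. Whether GATA3 probes read the introduced sequence, and whether the labels of the groups were exchanged, was not tested. Every direction here compares the arrays labelled GATA3 with the GFP control and would turn if the labels were exchanged. Of the markers of the line, VIM, CD44, AXL and EGFR were over the detection level on all 6 arrays. The progesterone receptor gene PGR lay at the floor, the oestrogen receptor gene ESR1 read a repeated 4.02 on 5 arrays, and ERBB2 was over the detection level on all arrays. Probe sets of the leukocyte genes PTPRC, CD3D and CD14, the endothelial genes PECAM1 and CDH5, and the luminal genes FOXA1 and TFF1 lay under the detection level on all 6 arrays.

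ZEB1 fell and OVOL2 rose, while neither ZEB2 nor SNAI2 passed the test. The other 6 members had no probe set over the detection level on enough arrays to be tested. Of the 6 tested member probe sets, 3 were lower, all of ZEB1, and 1 was higher, that of OVOL2. Over all tested probe sets 25.3% passed the threshold, 14% lower and 11.3% higher. The groups did not overlap in 5 of the 6 tested member probe sets, against 46% of all tested probe sets. That of OVOL2 passed the filter through the arrays labelled GATA3 alone, so its groups could not overlap. Without probe sets over the detection level in 1 whole group alone, the groups did not overlap in 4 of 5, against 45.2%.

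ZEB1, the E-box-binding repressor of E-cadherin, fell by every probe set that could be tested. The brightest (212764_at) read 11.04, 11.11 and 11.02 in the GFP control and 9.10, 9.19 and 9.13 in the arrays labelled GATA3. Both groups were tight, with an SD of 0.047 in the control and 0.048 in the other, and they lay apart by 1.92 on the log2 scale (change -1.92, SE 0.05, 95% confidence interval -2.04 to -1.79). This was 3.77-fold lower (adjusted p 1.64e-05). The gene stayed well over the detection level on the arrays labelled GATA3.

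The 2 other tested ZEB1 probe sets gave changes of like size with a wider spread. Probe set 210875_s_at read 9.68, 9.71 and 9.87 in the GFP control and 7.63, 7.69 and 7.04 in the arrays labelled GATA3. GATA3 replicate 3 was the lowest there, and the groups did not overlap. Its change of -2.30 (SE 0.19, adjusted p 0.000851) was 4.92-fold lower. Probe set 212758_s_at read 9.79, 10.05 and 9.66 in the GFP control and 8.26, 8.05 and 7.23 in the arrays labelled GATA3, again lowest on replicate 3. Here the change was -1.99 (SE 0.29, adjusted p 0.00607), or 3.96-fold lower. The 95% confidence intervals of all 3 overlapped, running from -2.77 to -1.83 for 210875_s_at and from -2.70 to -1.27 for 212758_s_at. Without GATA3 replicate 3 the changes were -1.91, -2.09 and -1.68 for 212764_at, 210875_s_at and 212758_s_at, all still past the threshold. The fourth ZEB1 probe set (239952_at) lay at the floor of 2.16 on all 6 arrays and gives no reading of the gene.

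The antisense neighbour ZEB1-AS1, named after its values had been seen, starts near ZEB1 on the opposite strand. A pair of RefSeq starts of the genes lies 121 bases apart, and the 250-base stretches before them share 120 bases. Its probe set (229090_at) read 7.13, 7.20 and 7.42 in the GFP control and 6.85, 6.75 and 5.85 in the arrays labelled GATA3. All 3 arrays labelled GATA3 lay under the control arrays, with replicate 3 far under the other two. The change of -0.77 (SE 0.28) did not pass the threshold (adjusted p 0.107). Without GATA3 replicate 3 it was -0.45 with an adjusted p of 0.0418, which passed.

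ZEB2, the close relative of ZEB1, had 5 probe sets, of which only 203603_s_at could be tested. It read 5.27, 4.99 and 6.03 in the GFP control and 5.37, 5.27 and 5.19 in the arrays labelled GATA3. The groups overlapped, and GFP control replicate 3 was the highest of all arrays. The log2 change was -0.15 (SE 0.27, adjusted p 0.701), with a 95% confidence interval of -0.82 to 0.52, so a change within this range cannot be told from none. Without GFP control replicate 3 the change was 0.15 (adjusted p 0.448). The other ZEB2 probe sets were 228333_at at 2.41, 233031_at at 2.17, and 233033_at and 235593_at at the floor of 2.16. Each repeated its value on all 6 arrays.

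SNAI2 (Slug), the Snail family member over the detection level in these cells, was high in both groups. Its probe set (213139_at) read 11.79, 11.80 and 11.79 in the GFP control and 11.71, 11.75 and 11.43 in the arrays labelled GATA3. Every array labelled GATA3 lay under the control arrays, by the most on replicate 3, but the change of -0.16 (SE 0.09) did not pass the threshold (adjusted p 0.231). Its 95% confidence interval ran from -0.39 to 0.06, which leaves out a change of the size seen for ZEB1. Without GATA3 replicate 3 the change was -0.06 (adjusted p 0.138). SNAI1 (Snail) lay under the detection level on all 6 arrays, at 2.84 on 5 of them and 2.93 on GFP control replicate 1. TWIST1 read the floor of 2.16 on all 6 arrays. A reading under the detection level does not show that a gene is silent.

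The gap between ZEB1 and its relatives was also taken within each array, which removes any shift common to all probe sets of an array. ZEB1 (212764_at) minus ZEB2 (203603_s_at) had a mean of 5.63 ± 0.57 (SD, n = 3) over the control arrays, against 3.86 ± 0.12 (SD, n = 3) over those labelled GATA3. The shift was -1.77 on the log2 scale, with no overlap between groups. ZEB1 minus SNAI2 (213139_at) was -0.76, -0.69 and -0.76 in the control and -2.61, -2.55 and -2.29 in the arrays labelled GATA3, a difference of -1.75. The two-sided exact permutation p was 0.1 for each of these comparisons, the smallest that 3 arrays against 3 allow, so neither can pass a threshold of 0.05. The gap between levels of different probe sets has no meaning in itself, and only its shift between groups was read.

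OVOL2, a zinc finger repressor of mesenchymal genes, passed the detection level on the arrays labelled GATA3 alone. Probe set 211778_s_at read 2.47 on all 3 control arrays and 8.09, 7.81 and 7.18 in the arrays labelled GATA3, lowest on replicate 3. The rise was at least 12.96-fold, the mean of 7.70 against the detection level (adjusted p 9.44e-05). The fitted change of 5.23 (SE 0.23) rests on control values under that level. Without GATA3 replicate 3 it was 5.48. The probe set was tested only because all 3 arrays labelled GATA3 were over the detection level, so its p depends on the group in which it is high. With no filter on low values, where every probe set was tested, the adjusted p was 0.00141.

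The other OVOL2 probe set (206048_at) did not show this. It read 3.60, 3.60 and 3.22 in the GFP control and 3.60, 3.60 and 4.44 in the arrays labelled GATA3, and was not tested. Only GATA3 replicate 3 was over the detection level, and 3 of the other arrays held an identical value. The rise of OVOL2 therefore rests on 1 probe set, whose suffix marks probes that can match more than 1 transcript. Its relative OVOL1 lay under the detection level on all arrays. Probe set 206604_at read the floor of 2.16 on every array, and 229396_at read 2.38 on the 3 control arrays and 2.38, 2.85 and 2.55 in the arrays labelled GATA3.

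The grainyhead-like factors did not pass the detection level on any GFP control array. GRHL1 came closest to it: 222830_at read 3.37, 3.37 and 3.42 in the GFP control and 4.08, 3.82 and 4.43 in the arrays labelled GATA3. The groups did not overlap, but only 2 arrays passed the detection level, so it was not tested. With no filter on low values its change of 0.72 had an adjusted p of 0.0986. The other GRHL1 probe set (1552685_a_at) lay at the floor of 2.16 on all 6 arrays. GRHL2 (219388_at) read 2.22, 2.16 and 2.27 in the GFP control and 2.42, 2.78 and 2.60 in the arrays labelled GATA3. These groups did not overlap either, yet all 6 values lay far under the detection level, and with no filter the adjusted p was 0.131. GRHL3 (232116_at) read the floor of 2.16 on all arrays.

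**Figure D1:**
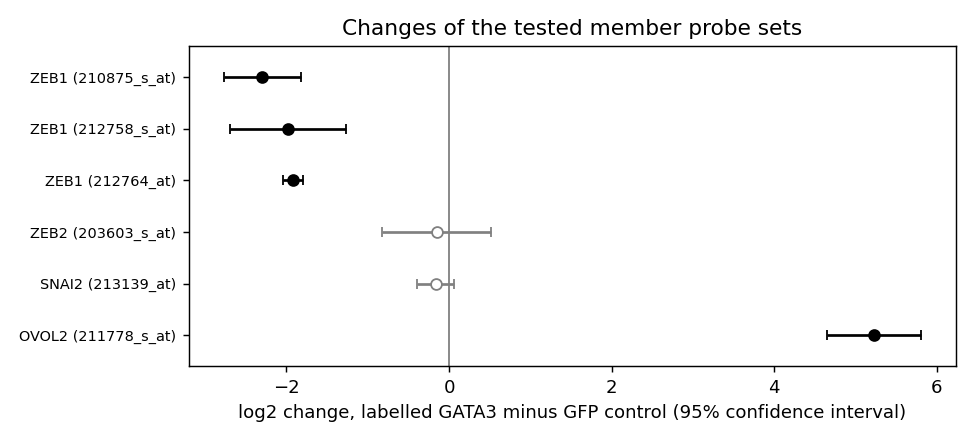
Log2 change (x axis, arrays labelled GATA3 minus GFP control, bars 95% confidence interval from limma) of the 6 tested member probe sets (y axis), filled where the adjusted p was under 0.05. The 3 ZEB1 probe sets lie at -2.30, -1.99 and -1.92, ZEB2 and SNAI2 have intervals that include 0, and the OVOL2 value of 5.23 rests on control values under the detection level.

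Other factors tied to the epithelial or the mesenchymal state were mostly not measurable. The list holds factors of both kinds, so its count and median describe neither state. Of 20 listed, 17 had a probe set of their own and 6 were tested, with 3 lower, none higher and a median change of -0.32. At an unadjusted p under 0.05 in limma, 4 were lower and 0 higher. Over all 10814 tested genes, taken at 1 probe set each, 29.3% passed the threshold, 14.8% higher and 14.5% lower, with a median of -0.02. EHF, an epithelial ETS factor, fell 4.06-fold (225645_at), from 9.87, 9.90 and 9.93 in the GFP control to 8.11, 7.99 and 7.53 in the arrays labelled GATA3 (adjusted p 0.000713). It thus moved the opposite way to OVOL2, although both are known from epithelia. The E-box binding factor TCF12 had a change of -0.35 (adjusted p 0.0242) and UBP1, a distant relative of the grainyhead factors, of -0.30 (adjusted p 0.0185). Both calls were lost in the fits without GFP control replicate 2 (adjusted p 0.0757 and 0.0689), without GFP control replicate 3 (0.0873 and 0.0632) and without GATA3 replicate 2 (0.0797 and 0.0618), and that of TCF12 also without GFP control replicate 1 (0.0615). In that last fit the lower genes numbered 2, and in the other 3 fits 1. With no filter on low values both calls were lost too (0.0747 and 0.0593). By their brightest probe sets TCF3, TFCP2 and KLF4 did not pass, with changes of -0.35, -0.22 and 0.03. A dimmer KLF4 probe set (220266_s_at) was lower (-0.51, adjusted p 0.0233). So were 209151_x_at (-0.87, adjusted p 0.0303) and 209152_s_at (-0.52, adjusted p 0.0432) of TCF3. The remaining tested probe sets of TCF3 and TFCP2 did not pass, nor did the other of TCF12 (238041_at, -0.39, adjusted p 0.250). SNAI3, TWIST2, OVOL3, PRRX1, TCF4, FOXC2, GSC, KLF8, ELF3, ELF5 and TFCP2L1 were not over the detection level on enough arrays.

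Cofactors and stability regulators of the ZEB and SNAI proteins that passed the test were mostly lower, by small amounts. Of 24 listed, 22 were tested, with 8 lower, 1 higher and a median of -0.20. Over all tested genes 14.5% were lower and 14.8% higher. HMGA2, a chromatin protein known to raise SNAI1 and TWIST1 transcription, fell 1.85-fold (208025_s_at), from 9.64, 9.56 and 9.67 to 8.86, 8.69 and 8.66 (adjusted p 0.000953). HDAC1, a histone deacetylase recruited by these repressors, changed by -0.31 (adjusted p 0.00279). The corepressor CTBP2, through which ZEB1 acts, changed by -0.61 (201218_at, adjusted p 0.0145). That call was lost without GFP control replicate 2 (adjusted p 0.0538) and with no filter on low values (0.0687), while 4 of its 5 other tested probe sets were lower as well, with changes of -0.35 to -0.51. The kinase LATS2 changed by -0.68 (227013_at, adjusted p 0.0124), and this call was lost without GFP control replicates 2 or 3 (adjusted p 0.0549 and 0.0528) and with no filter (0.0580). Its probe set 223380_s_at was lower as well (-0.50, adjusted p 0.00375), while 223379_s_at did not pass (-0.72, adjusted p 0.103). EZH2 (-0.29, adjusted p 0.0265) and WTIP (0.47, adjusted p 0.0308) lost their calls in most fits with 1 array fewer, at adjusted p-values of up to 0.0950 and 0.101, and with no filter (0.0882 and 0.0898). In fits without GFP control replicate 3, 2 or 1 the lower genes numbered 3, 4 and 5, and leaving out GATA3 replicate 1 gave 5. The number of higher genes was 0 in 5 of the 6 fits with 1 array fewer, and 1 without GFP control replicate 1.

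Epithelial genes known as targets of these factors mostly rose. Of 22 listed, 16 were tested, with 13 higher, 1 lower and 2 not past the threshold, and a median change of 1.40, also with the 2 genes under detection in the control set at their lower bound. A target dim in the GFP control was tested only if it was over the detection level in all 3 arrays labelled GATA3, so this count holds for tested genes alone. The shares over all tested genes were 14.8% higher and 14.5% lower. CDH1, the classical target of ZEB1 and SNAI repression, read 2.35 on all 3 control arrays and 7.92, 7.65 and 6.61 in the arrays labelled GATA3 (201131_s_at), at least 10.53-fold higher (adjusted p 0.000417). Its other probe set (201130_s_at) stayed at 2.17 to 2.27 on all arrays and was not tested. SPINT1, a protease inhibitor of epithelial surfaces, rose at least 20.6-fold, from 3.38, 3.38 and 3.19 to 8.47, 8.51 and 8.12. ERBB3 rose 7.48-fold (226213_at), from control values of 4.36, 4.32 and 4.32, just over the detection level. Its probe set 202454_s_at rose at least 4.75-fold, while 1563253_s_at read 4.70 on all 6 arrays. The tight junction gene OCLN rose 5.81-fold, MARVELD2, which encodes tricellulin, 4.49-fold, and the adhesion molecule EPCAM 4.46-fold. CRB3, a polarity gene with 5 E-boxes in the stretch shown above, read 7.57, 7.57 and 7.23 in the GFP control and 8.22, 8.38 and 8.65 in the arrays labelled GATA3, 1.95-fold higher (adjusted p 0.0081). MUC1 fell 2.21-fold, and CLDN7 (0.52) and PATJ (-0.41) did not pass. MARVELD3, TJP3, LLGL2, RAB25 and ESRP1 could not be tested.

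Promoter windows were listed for 12 of these 22 epithelial genes, and 9 of the 12 had at least 1 CAGGTG or CACCTG in the 250 bases before a start. The share was 75% of genes, against 20.6% of the 27305 genes with a window. By window it was 11 of 17, or 64.7%, against 17.5%. The list was drawn up as known targets of E-box-binding repressors, so this share is a description and not independent evidence. The genes with a window and no such E-box were MARVELD2, CLDN3 and CLDN4, all of which rose. Of the genes with such an E-box, OCLN, DSP, SPINT1 and CRB3 rose, while RAB25 and TJP3 could not be tested. MUC1, which fell, and PATJ, which did not pass, had 2 such E-boxes in each listed window. CLDN7, which did not pass either, had 4 in 1 of its 2 windows and 0 in the other. No test was made of E-boxes against direction.

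The mesenchymal genes known to follow these factors that could be tested went mainly down. Of 20 listed, 13 were tested, with 8 lower, 1 higher and 4 not past the threshold, and a median of -0.36. Among all tested genes 14.5% were lower and 14.8% higher. LOX, a collagen cross-linking enzyme, fell 55.7-fold (215446_s_at), the cadherin CDH11 16.5-fold, the matrix protein TGFBI 3.36-fold and the fibronectin receptor subunit ITGA5 3.16-fold. TAGLN, a smooth muscle actin-binding protein, rose 2.38-fold (205547_s_at), from 9.89, 9.77 and 9.82 to 11.10, 11.07 and 11.05 (adjusted p 6.37e-05). S100A4 fell 1.88-fold. Vimentin, a filament protein used as a marker of mesenchymal cells, fell 1.24-fold by its brightest probe set (201426_s_at). It went from 15.06, 15.05 and 14.98 to 14.79, 14.77 and 14.59 (adjusted p 0.0158). Its dimmer probe set (1555938_x_at) changed by -0.71 (adjusted p 0.0381). The N-cadherin gene CDH2 read a repeated 4.10 on 5 arrays and 4.50 on GATA3 replicate 3, and did not pass. By their brightest probe sets AXL (0.43), ACTA2 (0.06) and COL5A1 (0.03) did not pass either. Another AXL probe set (202685_s_at) was lower (-0.43, adjusted p 0.00577). SPARC, MMP2, COL1A2, THY1, FAP and POSTN could not be tested.

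**Figure D2:**
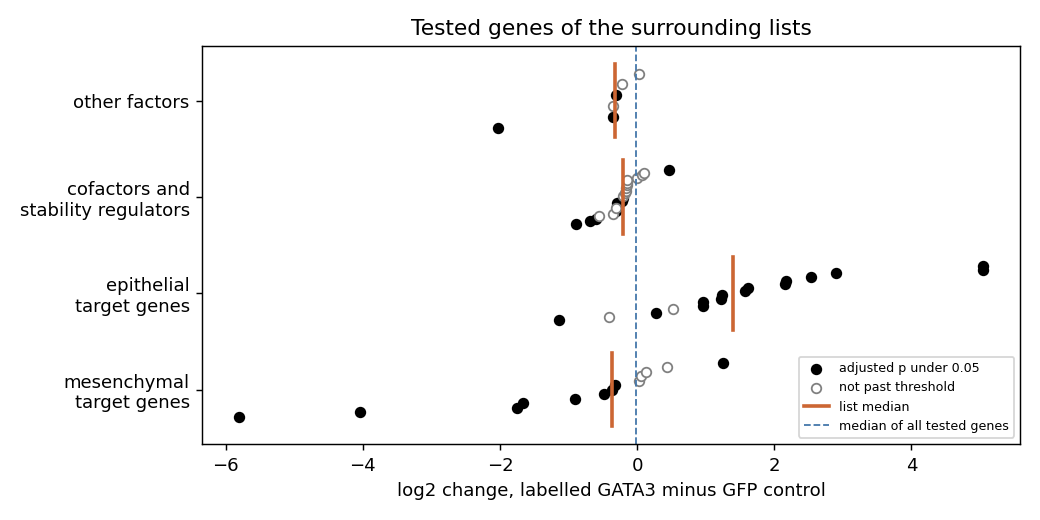
Log2 change (x axis, arrays labelled GATA3 minus GFP control) of each tested gene of the 4 lists (y axis), 1 probe set per gene, filled where the adjusted p was under 0.05, with list medians as bars and the median of all tested genes dashed. The epithelial target genes lie mostly to the right, with a median of 1.40, and the medians of the other lists lie between -0.36 and -0.20.

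Genes whose pattern over the 6 arrays was most like that of a member were ranked among 10813 other genes by the root mean square difference of values centred on each gene's own mean. Nearest to ZEB1 (212764_at) were TRIM6 (0.0915), SHISA2 (0.0965) and ARHGAP24 (0.11), in log2 units, of which ARHGAP24 was under the detection level on the arrays labelled GATA3. TRIM6 read 9.90, 9.93 and 10.05 in the GFP control and 8.11, 8.13 and 7.91 in the arrays labelled GATA3. For OVOL2 (211778_s_at) the 3 nearest by this measure were EPPK1, CDH1 and SPINT1. None of them, nor OVOL2, was over the detection level on a GFP control array, so their differences between groups are bounds and no order is given. EPPK1, which encodes the cytolinker epiplakin, read 2.16 on all 3 control arrays and 7.58, 7.39 and 6.95 in the arrays labelled GATA3. In EPPK1 and CDH1, as in OVOL2, GATA3 replicate 1 was the highest and replicate 3 the lowest. The measure is dominated by the difference between the groups and covers only 6 arrays.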

How the data were processed

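Total RNA of 6 MDA-MB-231 samples was biotin-labelled and hybridised to single-colour Affymetrix arrays, per the labels' protocols. The authors made the deposited log2 expression values with GCRMA (its version is not stated), according to the submitters' processing notes, per the labels. The log2 scale was read from the range of the values, since neither header nor labels state it. GCRMA models background from the bases of each probe, and dim probe sets end at a floor. Without the 62 control probe sets, 23785 were over 4 (log2) on at least 3 of the 6 arrays in any group and were fitted with limma (version 3.58.1, R 4.3.3; lmFit, eBayes with an intensity trend, no covariate), with Benjamini-Hochberg adjustment and a threshold of 0.05. A fold came from the difference of mean log2 values, or from 4, as a lower bound, for a group with no array over 4. Gene symbols came from the platform annotation, and for lists the tested probe set with the highest mean stood for a gene. All members were named, and of each list up to 6 genes past the threshold by size of change. Other genes given with values were named after these were seen. Members and lists were chosen with earlier results of these data known. The limma step was tested on simulated data. Alternatives were other filters, scalings and variance models, the replicate number as a block, other rules for a gene's probe set, and each array left out. Precision is limited by the number of arrays.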

Additional observations from a re-analysis of the deposited data

How the results depend on the processing

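The 3 tested ZEB1 probe sets and that of OVOL2 kept direction and call under all 12 alternatives each, with log2 changes of -1.94 to -1.88 (212764_at), -2.42 to -2.09 (210875_s_at), -2.19 to -1.68 (212758_s_at) and 5.03 to 5.48 (OVOL2), and adjusted p-values of up to 0.0349. SNAI2 stayed between -0.22 and -0.06 and never passed. ZEB2 ranged from -0.37 to 0.15 when 1 array was left out, turning sign without GFP control replicate 3, and never passed. The count of member genes was 1 higher and 1 lower in every fit. OVOL2 had no tested probe set with the suffix _at alone, so a rule that keeps only those gave it no call. Over all probe sets, 3329 were lower, against 1767 with no filter on low values and 2106 with the replicate block. With 1 array left out, 1801 to 3752 were lower and 1796 to 3581 higher (2698 with all arrays). The other factors had 1 lower with no filter and with the replicate block, and 1 to 3 with 1 array left out. Of the cofactors, none was higher and 4 were lower with no filter, 0 were higher and 5 lower with the replicate block, and 0 to 1 were higher and 3 to 8 lower with 1 array left out. A count of 0 is one of calls at adjusted p under 0.05 in limma. With the suffix _at alone, 8 epithelial target genes were higher and 0 lower, and 0 mesenchymal target genes were higher and 3 lower, with fewer genes tested. Same-numbered arrays of the groups deviated from their group means with correlations of -0.13, 0.16 and -0.11, so the replicate numbers were not taken to pair the arrays. The replicate block changed no call of a member. With it, TCF12, UBP1, CTBP2, EZH2 and WTIP did not pass, at adjusted p-values of 0.0854, 0.0789, 0.0665, 0.0720 and 0.0883. Signal over background limits SNAI1, TWIST1, OVOL1 and the GRHL genes, which could not be tested. The cause of the other shifts was not tested.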
